A study of Mus musculus with 6 samples.

Results

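The CLCA family comprises secreted and membrane-associated proteins named as chloride channel accessory proteins, and 7 members were followed here in colon tumours of mice: Clca1, Clca2, Clca3a1, Clca3a2, Clca3b, Clca4a and Clca4b. These are 7 of the 53700 gene rows of the count table. The family was chosen by the CPM of Clca4b, which is far higher in one group of these tumours than in the other, so the change of Clca4b is given below as a description, with no test. RNA from bulk tumours was sequenced in 2 groups of 3 libraries. The APC-WT tumours came from cachectic mice, that is, mice with the wasting syndrome of cancer, which kept their endogenous Tcf7l2 and had received doxycycline for 10 days. The APC-KI tumours came from mice in which doxycycline represses Tcf7l2 throughout the body, which had received it for 6 weeks and had recovered. Both groups received 100 mg/kg doxycycline in food pellets. The alleles behind the names APC-WT and APC-KI, and the strain, age and sex of the mice, could not be taken from the labels. Genotype, time on doxycycline and state of the animal cannot be told apart in this comparison, and because the repression is systemic, neither can tumour and host. Nothing in the labels says whether the 3 tumours of a group came from 3 mice, so p-values measure the spread between these libraries.

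CLCA proteins are processed in the secretory pathway and carry a von Willebrand factor type A domain. They are not channels themselves, but CLCA1 is known to raise the chloride current of the calcium-activated channel TMEM16A, encoded in mice by Ano1. In the intestine Clca1 is a major protein of goblet cell mucus, and Clca4a is known from absorptive enterocytes rather than goblet cells. The other members have been reported elsewhere, among other sites Clca3b in smooth muscle, Clca3a1 in lymphatic endothelium, Clca3a2 in mammary gland and Clca2 in keratinocytes of squamous epithelium. Mouse symbols of the family have been reassigned over time, and the older symbol of one member is often the present symbol of another, so each gene was matched by its Ensembl identifier.

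All 7 genes lie side by side on the minus strand of chromosome 3, between positions 144729677 and 145099443 (369.8 kb, RefSeq annotation of GRCm38.p6). From low to high coordinates the order is Clca3a1 (144729677 to 144760977, ENSMUSG00000056025), Clca3a2 (144780581 to 144819623, ENSMUSG00000028262), Clca3b (144822623 to 144849302, ENSMUSG00000037033), Clca4b (144910921 to 144932529, ENSMUSG00000074195), Clca4a (144952486 to 144975045, ENSMUSG00000068547), Clca1 (145004537 to 145032776, ENSMUSG00000028255) and Clca2 (145070260 to 145099443, ENSMUSG00000036960). The pseudogene Clca4c-ps, which is not counted among the 7, lies between Clca3b and Clca4b. Some of these genes are near copies of each other, which bears on how well reads can be assigned. Clca4a and Clca4b matched at 96.04% of 2775 coding bases, Clca3a1 and Clca3a2 at 97.08%, and Clca3b with either of that pair at 87.05%. The remaining pairs matched at 59.75% to 66.19%. The first 90 coding bases of Clca4a and Clca4b, from GENCODE M21 transcripts, show how close that pair is, with the 4 differing bases in capitals.

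Clca4a: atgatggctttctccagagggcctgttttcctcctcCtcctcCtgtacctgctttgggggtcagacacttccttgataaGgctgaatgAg

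Clca4b: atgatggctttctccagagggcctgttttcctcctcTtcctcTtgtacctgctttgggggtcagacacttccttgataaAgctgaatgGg

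Of all stretches of 75 bases in its transcript, 24.9% occurred identically in transcripts of other genes for Clca4a, 12.6% for Clca4b, 14.3% for Clca3a1, 14.7% for Clca3a2, 1.92% for Clca3b and 0 for Clca1 and Clca2. For Clca4a most of these, 457 of 729, were shared with the pseudogene Clca4c-ps. With stretches of 100 bases the shares were 17.3% for Clca4a, 6.49% for Clca4b, 8.67% for Clca3a1, 8.86% for Clca3a2 and 0.552% for Clca3b. With stretches of 50 bases they were 37.1%, 24.8%, 25.8%, 26.5% and 5.98% in the same order, and 0 for Clca1 and Clca2. The read length and the handling of reads that match several genes are not given in the sources used here. How reads were split among Clca4a, Clca4b and Clca4c-ps, and between Clca3a1 and Clca3a2, is therefore uncertain, and Clca3b is touched to a lesser degree.

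Promoter sequences were at hand in RefSeq for 5 of the 7 members, Clca2, Clca3a1, Clca3a2, Clca3b and Clca4b. Those of the neighbours Clca3a2 and Clca3b were the most alike, with 69.7% identity (161 of 231 aligned bases, out of the 250 before each start) and a longest identical run of 39 bases. Any bearing of this likeness on the levels of the genes was not tested. The other pairs had 52.3% to 58.4% identity and longest runs of 5 to 7 bases. The last 120 bases before the start are shown for that pair, 5′ to 3′ on the minus strand of GRCm38.p6, with identical runs of at least 20 bases in capitals, 68 bases in all. They stand at chr3:144819495-144819614 for Clca3a2 and chr3:144849303-144849422 for Clca3b. The starts used for Clca3a2 and Clca2 lie inside the gene spans given above. The 120 bases shown for Clca3a2 therefore lie within its span, which ends at 144819623.

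Clca3a2: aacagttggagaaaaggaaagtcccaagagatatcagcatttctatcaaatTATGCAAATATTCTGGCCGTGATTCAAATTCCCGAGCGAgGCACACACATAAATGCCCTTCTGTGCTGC

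Clca3b: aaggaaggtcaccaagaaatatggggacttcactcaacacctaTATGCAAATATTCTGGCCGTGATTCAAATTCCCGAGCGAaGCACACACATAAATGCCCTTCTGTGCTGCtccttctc

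The libraries held between 51777342 and 63921108 counts, with totals that overlapped between the groups. Tcf7l2, the repressed gene, stood at 44.1, 43.8 and 35.6 CPM (counts scaled to the same library size with TMM factors) in APC-WT and at 4.48, 6.91 and 5.34 CPM in APC-KI, as the labels have it. The defining epithelial genes were present in every library, with 10 of them summing to 8497 to 9504 CPM across APC-WT tumours, and 10380 to 12120 CPM in APC-KI. The sum hides Cdx2, a rarer gene of that list. Cdx2 stood at 32.8, 17.3 and 34.0 CPM in APC-WT replicates 1, 2 and 3 and at 56.5, 51.6 and 5.34 CPM in APC-KI replicates 1, 2 and 3. Counts of 4 Y-linked genes were 19164 and 16055 in APC-WT replicates 1 and 2 and 0 in the other libraries, so Y-linked transcripts were not matched between the groups, and results are also given for the 4 libraries that lack them, which include only 1 from APC-WT. Mitochondrial transcripts took 2.503% to 2.982% of counts in APC-WT and 2.196% to 2.433% in APC-KI, and the 10 most abundant genes 4.11% to 4.66% and 4.96% to 5.44% (exact two-sided permutation test, p = 0.1 each, the smallest that 3 against 3 allows). The part of sex and of these differences in the results below was tested no further.

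In short, 4 neighbouring genes, Clca4b, Clca3b, Clca3a2 and Clca3a1, were higher in every APC-KI tumour than in any APC-WT tumour, Clca4a was so in 2 of the 3, and the levels of Clca1 and Clca2 overlapped between the groups. Across all 19127 genes tested, 23.0% were higher in APC-KI with groups that did not overlap. Clca4b chose the family, so only the other members can be set beside that share. With edgeR's quasi-likelihood test and Benjamini-Hochberg adjustment over all these genes, 12.5% were called higher and 7.63% lower at an adjusted p under 0.05. Of the 6 members other than Clca4b, Clca3b, Clca3a2 and Clca3a1 were called higher and 0 were called lower. The median log2 change of all genes was −0.016, and scaling by library totals alone moved it by −0.116, which is small beside the changes of these members. In bulk tissue, fewer cells of a type and less RNA per cell cannot be told apart.

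**Figure D1:**
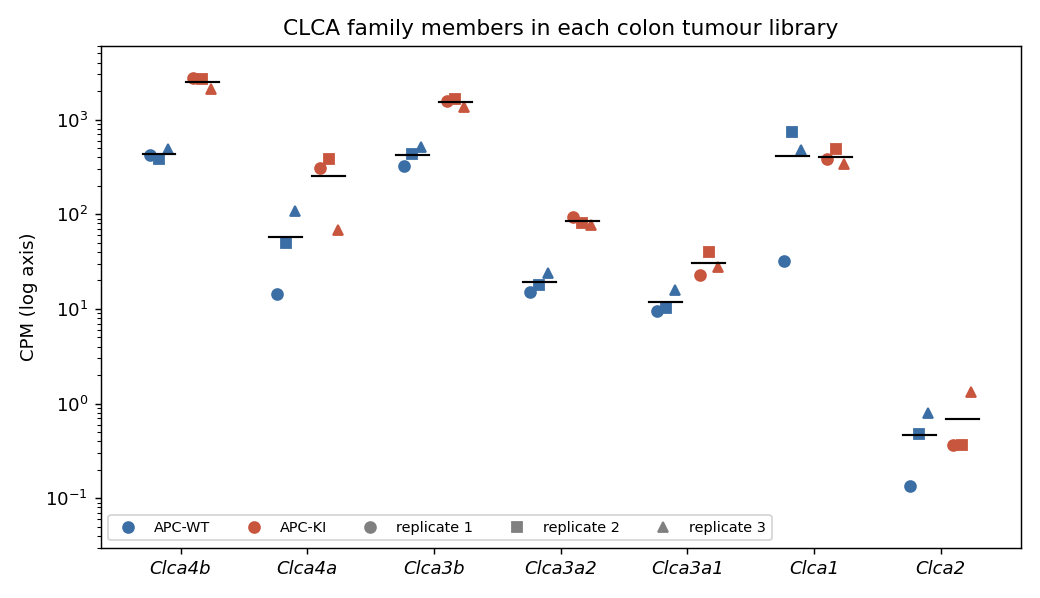
CPM of each CLCA member in the 6 libraries on a log axis, with APC-WT in blue and APC-KI in red, marker shapes for replicate numbers and a black bar at the mean of 3 libraries. Clca4b, Clca3b, Clca3a2 and Clca3a1 separate by group, while Clca1 has 1 low library, APC-WT replicate 1, at 32.4 CPM.

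Per kilobase of coding length, Clca4b was the most abundant member in 5 of the 6 libraries. It stood at 418, 379 and 494 CPM in APC-WT replicates 1, 2 and 3 and at 2755, 2691 and 2081 CPM in APC-KI replicates 1, 2 and 3, from 21558 to 27869 counts per APC-WT library and 116961 to 143441 per APC-KI library. The lowest APC-KI tumour thus lay far above the highest APC-WT tumour. Within a group, the highest and lowest libraries differed 1.30-fold in APC-WT and 1.32-fold in APC-KI. The medians over 13931 genes whose average log2 CPM reached 1 were 1.22-fold and 1.19-fold. The means of Clca4b were 430.4 ± 58.6 CPM and 2509 ± 372 CPM (SD, n = 3 each), a 5.83-fold difference with a log2 change of 2.54 ± 0.15 (SE). Over 15 other settings, which included each library left out in turn, the log2 change lay between 2.34 and 2.65.

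Clca4a, its near copy, was much rarer and far more variable. Its levels were 14.2, 49.2 and 109 CPM in the APC-WT libraries and 305, 379 and 68.4 CPM in APC-KI. APC-KI replicate 3 lay below APC-WT replicate 3, so the groups overlapped, although the other 2 APC-KI tumours were higher than any APC-WT tumour. The means were 57.4 ± 47.9 and 251 ± 162 CPM (SD, n = 3 each), and the log2 change of 2.13 ± 0.86 (SE) did not pass (edgeR adjusted p = 0.124). It passed under 0 of 15 other settings, with adjusted p between 0.0592 and 0.610 and log2 changes between 1.2 and 2.98. Clca4a counts equalled 3.41%, 13.0% and 22.0% of those of Clca4b in APC-WT and 11.1%, 14.1% and 3.29% in APC-KI, so the pair did not keep a constant ratio. How far reads of Clca4b were counted for Clca4a was not tested.

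The spread of Clca4a was among the widest in the table. Its highest and lowest libraries differed 7.65-fold in APC-WT and 5.54-fold in APC-KI, and only 0.876% and 1.09% of the 13931 genes whose average log2 CPM reached 1 were as wide. APC-KI replicate 3, where Clca4a was low, was also low in genes of the surface colonocyte, the absorptive cell of the colon. Of 23 such genes tested, 19 (82.6%) had their lowest APC-KI value in that library, against 35.5% of all genes. Genes chosen after their values were seen show some of the larger gaps. The chloride-bicarbonate exchanger Slc26a3 stood at 80.5, 82.3 and 16.8 CPM in APC-KI replicates 1, 2 and 3. The carbonic anhydrase Car4 stood at 49.3, 72.3 and 11.6 CPM. The water channel Aqp8 stood at 6.63, 17.9 and 0.641 CPM. Other genes of the list differed less or went the other way. In the same order, Cdhr5 stood at 407, 417 and 294 CPM, Lypd8 at 7061, 5730 and 6650 CPM and Slc9a3 at 215, 216 and 252 CPM. Clca4b was lowest in APC-KI replicate 3 too, but at 2081 CPM it was much closer to the other APC-KI libraries than Clca4a was. The part of colonocyte content in the level of Clca4a was not tested.

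The 3 neighbours at the other end of the cluster passed the test. Clca3b, the second most abundant member per kilobase in APC-KI tumours, stood at 325, 429 and 516 CPM across APC-WT tumours, and 1557, 1645 and 1351 CPM in APC-KI, with no overlap. The means were 423 ± 95.6 and 1518 ± 151 CPM (SD, n = 3 each). Clca3b rose 3.59-fold (log2 change 1.84 ± 0.18 SE, edgeR adjusted p = 0.00400). In all 15 other settings it passed as higher, with log2 changes of 1.56 to 2.01 and a highest adjusted p of 0.0269.

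Clca3a2 stood at 14.9, 18.0 and 24.1 CPM in the APC-WT libraries and 93.6, 81.3 and 76.8 CPM in APC-KI. The APC-KI libraries were again all higher, and close to each other. Its means were 19.0 ± 4.69 and 83.9 ± 8.70 CPM (SD, n = 3 each), and it rose 4.42-fold (log2 change 2.14 ± 0.19 SE, edgeR adjusted p = 0.00340). It passed in all 15 other settings too (log2 change 1.80 to 2.35, highest adjusted p = 0.0226). Counts of Clca3a2 equalled 4.596%, 4.2% and 4.68% of those of Clca3b in APC-WT and 6.02%, 4.94% and 5.69% in APC-KI. The ratio between these genes was slightly higher in every APC-KI library, a small difference beside the rise of both levels.

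Clca3a1, the near copy of Clca3a2, stood at 9.58, 10.2 and 15.9 CPM across APC-WT tumours, and 23.0, 40.0 and 27.8 CPM in APC-KI. All APC-KI libraries were higher, but by less than for its neighbours. It rose 2.55-fold, from 11.9 ± 3.501 to 30.3 ± 8.77 CPM (SD, n = 3 each; log2 change 1.35 ± 0.28 SE, edgeR adjusted p = 0.0217). Clca3a1 was the least stable of the calls and passed in 10 of 15 other settings. The call was lost when APC-WT replicate 1 (adjusted p = 0.0603), APC-WT replicate 2 (adjusted p = 0.0814) or APC-KI replicate 2 (adjusted p = 0.0587) was left out. In the 4 libraries that lack Y-linked counts its log2 change was 0.92, and a covariate for the presence of such counts gave 0.93. The call was lost in both, and both rest on APC-WT replicate 3 alone on the APC-WT side.

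Markers of smooth muscle, endothelium and fibroblasts were also counted, beside 12.5% of all genes called higher and 7.63% called lower. All 12 smooth muscle genes rose, and their sum went from 248 to 558 CPM in APC-WT to 1122 to 1786 CPM in APC-KI. In APC-WT replicates 1, 2 and 3 that sum was 248, 357 and 558 CPM, in the same order as Clca3b, Clca3a2 and Clca3a1. This order was not particular to muscle. The sums of the fibroblast, blood endothelial, epithelial and surface colonocyte lists followed it too, and that of the lymphatic endothelial list did not. In APC-KI the smooth muscle sum was 1122, 1400 and 1786 CPM. It was highest in replicate 3, where Clca3b and Clca3a2 were lowest and Clca3a1 lay between its other values. Of 10 blood endothelial genes 5 rose and 0 fell (summed level 236 to 302 against 346 to 432 CPM). Of 8 lymphatic endothelial genes Flt4 and Ccl21a rose and Prox1 fell, with a median log2 change of 1.02. Their sum, 618 to 743 CPM in the APC-WT libraries and 331 to 518 CPM in APC-KI, is dominated by Prox1, at 531 to 672 CPM in the former. Of 10 fibroblast genes 3 rose and 0 fell (914 to 2488 against 2851 to 3985 CPM). Of the 10 epithelial genes 5 rose and 0 fell. None of these lists had a gene at 0 in all libraries. The part of muscle, vessel or fibroblast RNA in the rise of Clca3b, Clca3a2 and Clca3a1 was not tested.

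**Figure D2:**
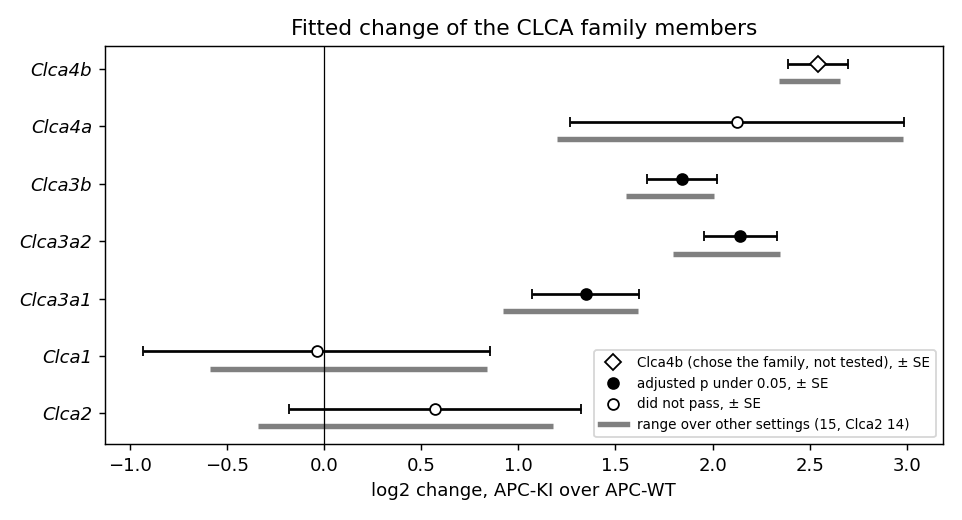
Fitted log2 change of each member, APC-KI over APC-WT, with SE (points and bars) and the range over the other settings (grey bars below each point). Filled points passed the test, and the ranges of Clca1 and Clca2 cross 0.

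Clca1, the mucus protein of goblet cells, overlapped between the groups. Its levels were 32.4, 733 and 476 CPM across APC-WT tumours, and 380.3, 488 and 342 CPM in APC-KI. The 3 APC-KI tumours lay between the APC-WT extremes, and APC-WT replicate 1 stood apart from every other library, with 2160 counts where the others held 19248 to 41709. The means were 414 ± 355 and 404 ± 75.6 CPM (SD, n = 3 each), and the log2 change of −0.04 ± 0.89 (SE) did not pass (edgeR adjusted p = 0.980). Without APC-WT replicate 1 the change was −0.59 (adjusted p = 0.144). It changed sign in 6 of the 15 other settings, so its direction is not determined by these libraries.

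The 22.6-fold range of Clca1 within APC-WT was matched or exceeded by 30 of 13931 genes (0.215%), whose median range was 1.22-fold. The 20 goblet cell genes summed to 2702 CPM in APC-WT replicate 1, the lowest of the group, against 3093 and 3333 CPM in the other APC-WT libraries. Of these genes 8 (40.0%) had their lowest APC-WT value there, against 40.1% of all genes. Muc2, the gel-forming mucin, stood at 1215 CPM in that library and at 1077 and 1319 CPM in the other APC-WT tumours. Fcgbp, another mucus protein, stood at 218 CPM against 687 and 507 CPM, and the mucus lectin Zg16 at 49.3 CPM against 115 and 141 CPM. Other genes of the list went the other way. Atoh1 stood at 25.4 CPM against 15.2 and 14.8 CPM, and Spink4 at 335 CPM against 322 and 276 CPM. Spdef, Bcas1, Sytl2 and Ern2 were also highest of APC-WT in APC-WT replicate 1. Type 2 cytokine signalling, the IL-4 and IL-13 pathway, is known to induce Clca1 in airway goblet cells. Of 15 such genes tested, 10 had their lowest APC-WT value in that library, against 40.1% of all genes. Il13 itself had 0.02999, 0.246 and 0.318 CPM in the APC-WT libraries and at most 0.0384 CPM in APC-KI. At 0 to 17 counts per library it was too rare to be tested. Mean levels of the fibroblast, smooth muscle, squamous, blood endothelial, mast cell, B and plasma cell and colonocyte lists were also lowest of APC-WT in that library. Those of the epithelial, lymphatic endothelial and chloride channel lists were not. The part of goblet cells, type 2 signalling or these other cell types in the level of Clca1 was not tested.

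Clca2 was close to absent. It had 9, 27 and 42 counts in APC-WT and 19, 19 and 74 counts in APC-KI, or 0.135, 0.475, 0.786, 0.365, 0.363 and 1.32 CPM in that order. The groups overlapped, and the log2 change of 0.57 ± 0.75 (SE) did not pass (edgeR adjusted p = 0.608). The library with the most Clca2, APC-KI replicate 3, also decided its direction, since without it the change was −0.34. Of 13 squamous epithelial genes tested 0 rose and Krt4 fell, beside 12.5% and 7.63% of all genes. The 15 listed genes summed to 60.1 to 181 CPM across APC-WT tumours, and 64.4 to 151 CPM in APC-KI. The basal keratin Krt5 had 0.45, 5.26 and 14.9 CPM in the APC-WT libraries and 3.44, 0.134 and 18.7 CPM in APC-KI, and was highest in APC-KI replicate 3, as Clca2 was. The sum of the squamous genes was instead highest in APC-WT replicate 3, as were Krt14, Krt6a and Trp63. The part of squamous cells in the level of Clca2 was not tested.

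Summed over the 7 members, the family held 0.0849%, 0.169% and 0.169% of all counts in APC-WT and 0.480%, 0.507% and 0.391% in APC-KI. This corresponds to 814, 1619 and 1636 CPM against 5114, 5325 and 3949 CPM, a 3.54-fold difference of the means that the choice of the family on Clca4b partly fixes. For the most abundant members the shares differed more among APC-WT than among APC-KI libraries. Clca4b made up 51.4%, 23.4% and 30.2% of family counts in APC-WT and 53.9%, 50.5% and 52.7% in APC-KI. Clca1 made up 3.98%, 45.3% and 29.1% in APC-WT and 7.44%, 9.17% and 8.67% in APC-KI. The share of Clca3b was 26.5% to 39.9% in APC-WT and 30.4% to 34.2% in APC-KI. The share of Clca4a varied in both groups, with 1.75%, 3.04% and 6.66% in APC-WT and 5.96%, 7.12% and 1.73% in APC-KI. In APC-WT replicate 2, Clca1 was thus the leading member, and in every APC-KI tumour Clca4b and Clca3b together far outweighed it.

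**Figure D3:**
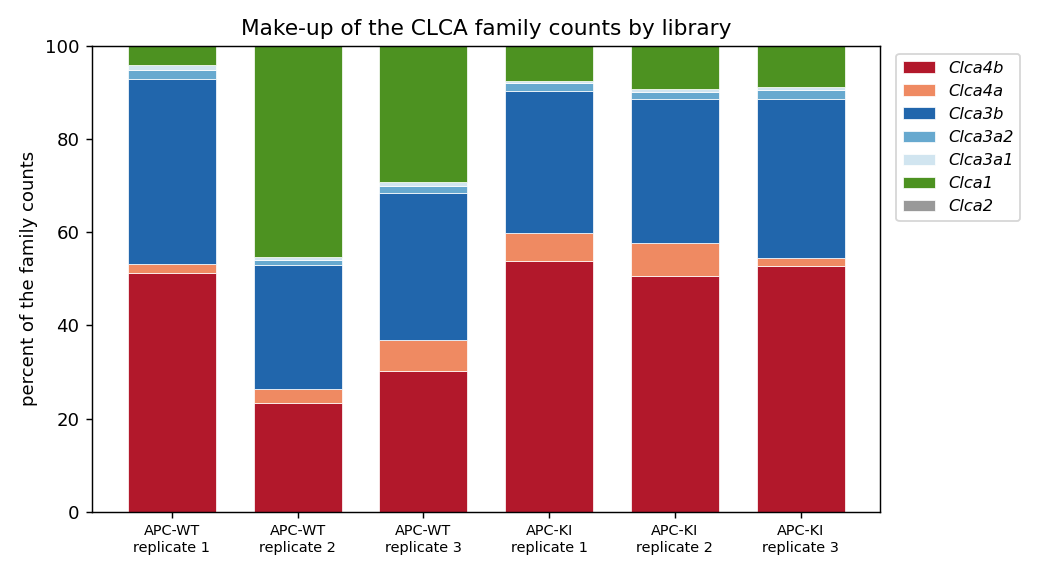
Percent of the family counts taken by each member in each library, as stacked bars that add to 100. Clca4b takes 50.5% to 53.9% in the APC-KI libraries, and the green Clca1 segment ranges from 3.98% to 45.3% across the APC-WT libraries.

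Levels between genes were compared as CPM per kilobase of coding length. In APC-WT tumours Clca4b (155 ± 21.1), Clca1 (151 ± 130) and Clca3b (135 ± 30.5) overlapped at the top (SD, n = 3 each). Clca4a (20.7 ± 17.2), Clca3a2 (7.03 ± 1.73) and Clca3a1 (4.39 ± 1.29) followed, each overlapping with the next, and Clca2 came last (0.165 ± 0.115). In APC-KI tumours the order was more distinct. Clca4b (904 ± 134) stood above Clca3b (485 ± 48.1), which stood above Clca1 (147 ± 27.6), with no overlap between these neighbours. Clca1 overlapped with Clca4a (90.3 ± 58.4), and Clca4a with Clca3a2 (31.0 ± 3.22). Clca3a1 (11.2 ± 3.24) and Clca2 (0.241 ± 0.195) were each set apart from the member above.

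Along the chromosome, the genes that were higher stood next to each other at one end of the cluster, from Clca3a1 to Clca4b, followed by the variable Clca4a and then by Clca1 and Clca2. The pseudogene Clca4c-ps between Clca3b and Clca4b was rare, with 1.11, 1.13 and 1.35 CPM across APC-WT tumours, and 10.1, 6.35 and 11.5 CPM in APC-KI. It rose as well (log2 change 2.96 ± 0.28 SE, edgeR adjusted p = 0.00383), at 0.236% to 0.554% of the counts of Clca4b, and whether its reads came from its relatives was not tested. The long noncoding RNA Gm35066, which overlaps Clca4a, had a log2 change of 0.59 (adjusted p = 0.374).

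**Figure D4:**
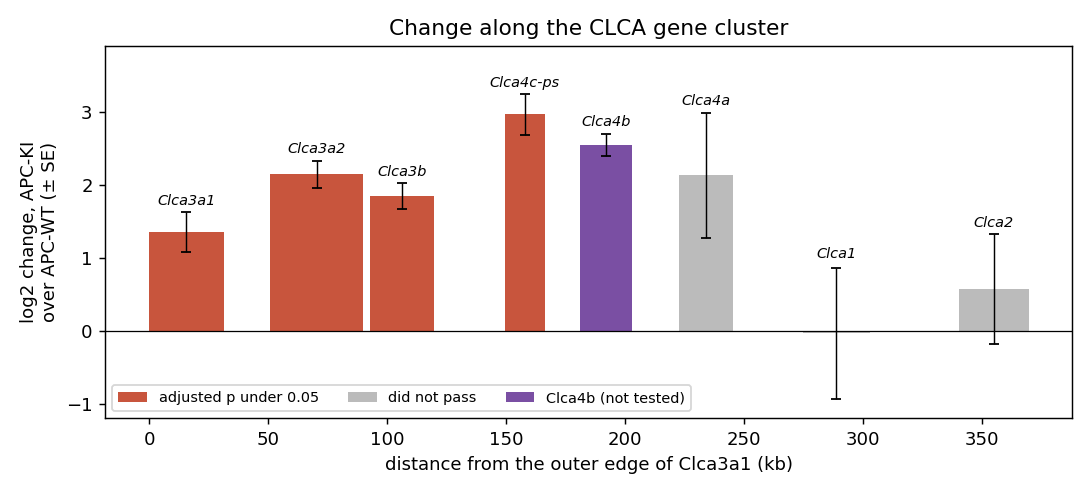
Log2 change with SE of each CLCA gene, drawn to scale along the 369.8 kb of the cluster, with bar width equal to gene length. The changes from Clca3a1 to Clca4a lie between 1.35 and 2.96, and those of Clca1 and Clca2 lie near 0 with wide errors.

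Of the 3 nearest tested genes per side of the cluster, Sh3glb1 and Col24a1 rose and 0 fell, beside 12.5% and 7.63% of all genes. On the Clca3a1 side, Sh3glb1, a membrane-curving protein of autophagy and apoptosis at 9.3 kb, rose slightly (log2 change 0.39 ± 0.07 SE, edgeR adjusted p = 0.0167). The pseudogene Gm9419 at 0.3 kb had a log2 change of 1.13 ± 0.37 at 0.112 to 0.363 CPM and did not pass (adjusted p = 0.0738). Selenof, a selenoprotein of the endoplasmic reticulum, did not pass, with a change of 0.15 (adjusted p = 0.215). On the Clca2 side, Odf2l at 19.1 kb had a change of −0.03 (adjusted p = 0.802) and Znhit6 one of −0.30 (adjusted p = 0.0991). Col24a1, a fibrillar collagen at 193 kb, rose from 3.76 ± 1.65 to 8.53 ± 0.57 CPM (SD, n = 3 each; log2 change 1.18 ± 0.31 SE, adjusted p = 0.0403).

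Short motifs were searched on both strands of the 5 promoters, from 250 bases before to 50 after the start, and of the 27018 RefSeq promoters of the same length. The TCF/LEF core CTTTGAA, the type of site that Tcf7l2 binds, occurred in Clca2, at position 6 after the start, and in 5.3% of all promoters. The variant CTTTGAT (3.7% of all promoters) and the CDX cores TTTATGG (2.8%) and TTTATTG (4.8%) occurred in none of the 5. The interferon-stimulated response element, searched as GAAA, 2 bases of any kind and GAAA, occurred in Clca3a1 and Clca3a2 and in 3.5% of all promoters. The STAT6 motif, searched as TTC, 4 bases of any kind and GAA, occurred in none of the 5 and in 7.0% of all promoters. Both interferon element matches are shown with 10 bases on either side and the match in capitals, 5′ to 3′ on the minus strand of GRCm38.p6. They stand at chr3:144760978-144761007 for Clca3a1, where the element reads on the opposite strand, and chr3:144819585-144819614 for Clca3a2, within the stretch shown above but outside its shared runs. The Clca3a2 match thus also lies inside the span of that gene. A match is a description of the letters only.

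Clca3a1: atctgataagTTTCCATTTCttgtccgttc

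Clca3a2: aacagttggaGAAAAGGAAAgtcccaagag

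Genes of the settings in which CLCA proteins work were counted from lists. The counts of each list below stand beside 12.5% of all genes called higher and 7.63% called lower. Of 20 goblet cell genes 6 rose and 3 fell, with a median log2 change of 0.47. Fewer than these 9 were called in the 4 libraries that lack Y-linked counts, and with the presence of such counts as a covariate. Tff3, the trefoil peptide of mucus, rose from 76.7 ± 14.8 to 222 ± 27.1 CPM (SD, n = 3 each; edgeR adjusted p = 0.00490). Muc2 rose 2.11-fold (adjusted p = 0.0243), and Creb3l1, a factor of the secretory pathway, 1.82-fold (adjusted p = 0.0111). Foxa3, a transcription factor of secretory cells, was 1.82-fold lower (adjusted p = 0.0130). Clca1, the goblet cell member, was thus at 404 CPM in APC-KI beside a risen Muc2, at a level that overlapped with APC-WT.

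Of 24 surface colonocyte genes 23 were tested, 9 rose and 2 fell, with a median log2 change of 1.45. Lypd8, an anchored protein that binds flagella of bacteria in the colon lumen, rose 3.96-fold (adjusted p = 0.00119) and the brush border cadherin Cdhr5 2.19-fold (adjusted p = 0.00627). The sodium-proton exchanger Slc9a3 fell by 0.82 and the peptide gene Guca2b by 1.24 on the log2 scale (adjusted p = 0.00666 and 0.00776). The count of 11 called rose to 17 without APC-KI replicate 3 and was 1 in both Y-linked alternatives.

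Of 20 chloride channels and transporters 18 were tested, 4 rose and 3 fell, with a median log2 change of 0.23. In the Y-linked alternatives 2 and 3 were called in place of 7, and the median was 0.12 in both. Ano1, whose channel CLCA1 modulates, stood at 90.3, 128 and 136 CPM in the APC-WT libraries and 101, 76.2 and 143 CPM in APC-KI, and its log2 change of −0.15 ± 0.26 (SE) did not pass (adjusted p = 0.705). Cftr, the cyclic AMP-regulated chloride channel, rose from 35.1 ± 4.07 to 89.2 ± 24.8 CPM (SD, n = 3 each; adjusted p = 0.0118). Clic5 rose 3.44-fold (adjusted p = 0.00490) and Ano6, a calcium-activated lipid scramblase and channel, 1.48-fold (adjusted p = 0.0103). Clcn3, a chloride-proton exchanger of endosomes, was 1.73-fold lower (adjusted p = 0.00490).

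Of 20 genes of type 2 cytokine signalling 15 were tested, 3 rose and 2 fell, with a median log2 change of 0.52. That direction depends on the libraries, since the Y-linked alternatives gave medians of −0.071 and −0.052, each with 1 call in place of 5. The receptor chain Il13ra1 rose 1.91-fold (adjusted p = 0.0120) and the eosinophil chemokine Ccl11 3.26-fold (adjusted p = 0.0202), while the lipoxygenase Alox15 was 3.18-fold lower (adjusted p = 0.00731). The factor Stat6 had a log2 change of 0.02 (adjusted p = 0.895). Against these lists, immune cell markers shifted far more. All 10 mast cell genes fell (sum 168 to 912 CPM in APC-WT, 23.2 to 40.6 CPM in APC-KI), and 8 of 10 B and plasma cell genes rose (1035 to 1531 against 6093 to 14780 CPM).

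**Figure D5:**
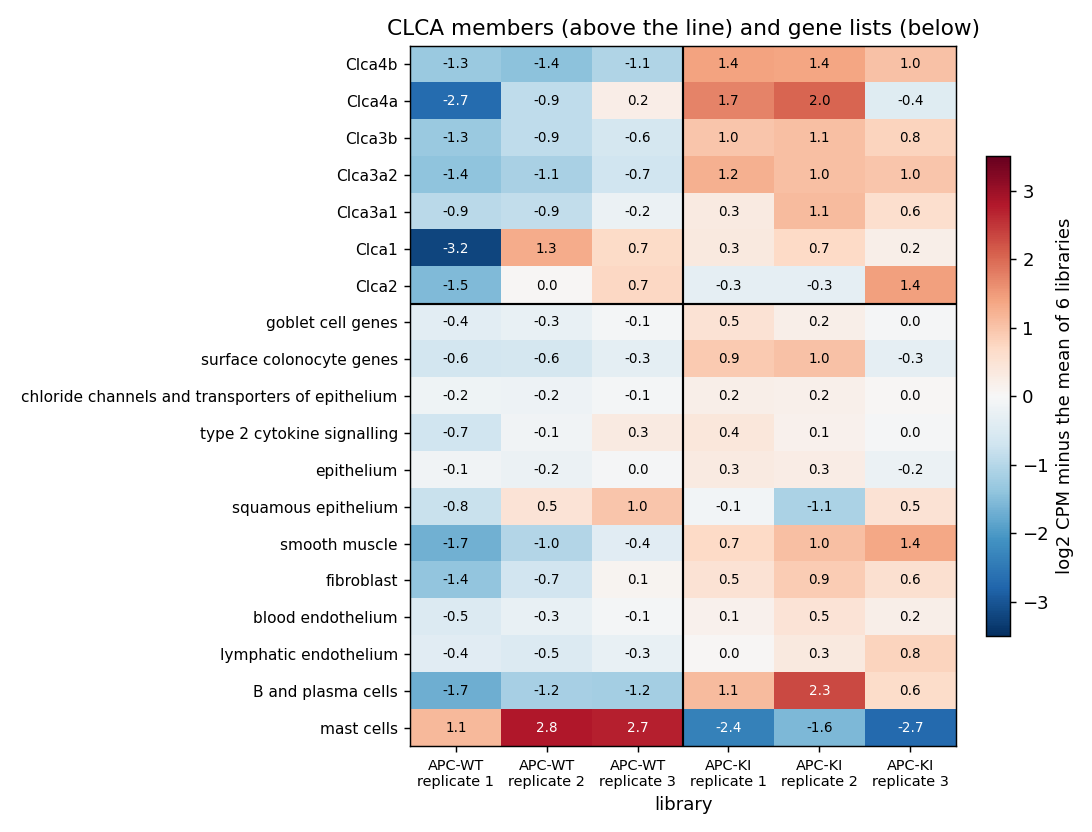
Log2 CPM of each CLCA member (above the line) and mean log2 CPM of each gene list (below) in each library, minus the mean over the 6 libraries. Clca1 is lowest in APC-WT replicate 1, at −3.2, and Clca4a and the surface colonocyte list are both below their means in APC-KI replicate 3.

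The genes whose log2 CPM followed that of Clca4b most closely over the 6 libraries, by Pearson's r among 12850 genes, were Zfp952 (r = 0.9996), Nans (0.9989), Dusp6 (0.9984), Tmem127 (0.9983) and Sult1b1 (0.9983). A pattern that separates the groups has many matches, and 98 genes shared the highest rank correlation with Clca4b. Of the 5, the sulfotransferase Sult1b1 had the closest size of change, with 20.1, 18.3 and 22.4 CPM across APC-WT tumours, and 95.7, 84.3 and 67.1 CPM in APC-KI (log2 change 2.02), and Zfp952 had a log2 change of 0.25. The genes most like Clca1 were Pklr (r = 0.984), Daam2 (0.981), Nfatc2 (0.975), Rnpep (0.973) and Ndufb2 (0.969). These were likewise lowest in APC-WT replicate 1, but over a much smaller range, for example 7.33, 15.7 and 13.8 CPM in APC-WT for Daam2. None of these 5 stayed among the first 5 by Spearman's rho.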

How the data were processed

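RNA was measured in 6 bulk colon tumours, 3 APC-WT and 3 APC-KI, grouped by their titles. Per the labels' protocols, tumours were pinched from the muscle layer beneath and libraries were made with a stranded mRNA kit. The submitters' processing notes name Trim Galore 0.6.4, cutadapt 2.5, STAR, DESeq2 1.37.6 and the builds GRCm38 and mm10. The counter, its strand setting, the annotation release and the read length are not given in the sources used here. Whole-number raw counts per Ensembl gene were deposited, per the file headers and values.

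Symbols came from GENCODE M21, which named 52093 of 53700 identifiers. Identifier versions equalled those of M21 for 35 rows only, so coordinates, from RefSeq GRCm38.p6, may differ from the gene models counted. The test was edgeR 4.0.16 in R 4.3.3 (filterByExpr, TMM factors, robust glmQLFit and glmQLFTest) with group as the only term. Benjamini-Hochberg adjustment ran over 19127 genes, with a threshold of 0.05. The SE was taken as the log2 change divided by the square root of F. CPM are deposited counts scaled to a common library size. The steps were tested on simulated data.

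The members and gene lists were chosen with earlier results of these data known. Named genes were the 7 members, Tcf7l2, up to 4 genes with the smallest p per list, the 3 nearest tested genes on each side of the cluster, and the 5 most like Clca4b and Clca1 (average log2 CPM from 1 upward, prior count 2, leaving out pseudogenes, unnamed models and antigen receptor segments); others named were chosen after their values were seen. Alternatives were DESeq2 1.42.0, limma-voom (limma 3.58.1), RLE factors, library totals, no filter, a stricter filter (CPM above 1 in 3 libraries), the replicate number as a block, each library left out, and the 4 libraries without Y-linked counts. Another had the presence or absence of Y-linked counts as a covariate.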

Additional observations from a re-analysis of the deposited data

How the results depend on the processing

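Of the members, Clca3b and Clca3a2 kept their direction and passed in all 15 alternatives, and Clca4b kept its direction in all 15. Clca3a1 kept its direction and lost its call in 5, given with the result. Clca2 could not be fitted with the stricter filter. With limma-voom and the replicate block the log2 change of Clca1 was 0.837 and 0.631, and with 1 library left out it ranged from −0.586 to 0.663. For Clca2 it ranged from −0.341 to 1.18 with 1 library left out. It was −0.2 in the 4 libraries that lack Y-linked counts and −0.197 with the presence of such counts as a covariate. The cause of these changes was not tested, apart from the fewer libraries that remain.

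Over all genes, 2388 were higher and 1459 lower. The replicate block gave 1195 and 465. Deviations of same-numbered libraries correlated at 0.035, −0.068 and −0.182 and those of other pairs at −0.145 to 0.198. With 3 libraries per group, deviations from a group mean constrain each other, so these values cannot show whether the samples were paired. The libraries lacking Y-linked counts gave 178 and 152, where the variation of the lone APC-WT library is taken from the APC-KI ones, and the covariate 220 and 195. Lower genes numbered 2230 with DESeq2 and 2844 with library totals. With 1 library left out, 788 to 2542 were higher and 300 to 1595 lower.

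Goblet cell genes called were 9, and 3 with the block. Surface colonocyte genes called were 11, and 7 without a filter. Chloride channel genes called were 7, and type 2 signalling genes 5, or 3 with the block. In the libraries lacking Y-linked counts these 4 counts were 2, 1, 2 and 1, and with the covariate 1, 1, 3 and 1. With 1 library left out they ranged over 2 to 10, 6 to 17, 4 to 9 and 3 to 6. The type 2 median was −0.071 and −0.052 in the Y-linked alternatives. Per kilobase, Clca4b took 54.25% of the family in APC-KI, against 52.37% by counts. Depth limited Clca2, with 9 to 74 counts per library.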

Other observations

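Of 13931 genes whose average log2 CPM reached 1, 17 met a 10-fold rule in APC-WT replicate 1, Clca1 among them. Under it, both other APC-WT tumours held at least 10 times the level of that library. The rule also counted genes at 0 in that library and in another, here Teddm3, Igkv4-62 and Serpina1c, which were not lower than both. In the other 5 libraries the same count, with ties at 0 included, lay between 2 and 14 against the other libraries of their group. Gsdmc2, Gsdmc3 and Gsdmc4, members of the gasdermin C family of pore-forming proteins, were among the 17. Gsdmc4 stood at 6.30, 102 and 138 CPM in the APC-WT libraries and 166, 120.1 and 107 CPM in APC-KI. Gsdmc2 stood at 7.42, 80.0 and 105 CPM in the APC-WT libraries and 86.3, 36.3 and 56.2 CPM in APC-KI. Gsdmc3 stood at 1.19, 12.0 and 20.8 CPM in the APC-WT libraries and 16.7, 5.91 and 7.70 CPM in APC-KI. Like Clca1, these 3 genes were low in 1 APC-WT library and overlapped between the groups otherwise. These related genes may share reads, and they were singled out after their values were seen.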
